A study of Homo sapiens with 9 samples.

Results

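54 interferon-stimulated genes were followed in MDA-MB-231 cells, a human triple-negative breast cancer cell line, after knockdown of ASAH1. The genes were taken by name from the 26485 genes of the deposited RNA sequencing tables, not by a cutoff on their values. The list was chosen with earlier results of these data known. It comprises 4 STAT and IRF transcription factors, 6 nucleic acid sensors or sensor adaptors and 44 effectors. The cells were engineered to stably carry either a nonspecific (NS) shRNA, an RNA hairpin used as the control, or 1 of 2 hairpins of unrelated sequence against ASAH1 (ASAH1 shRNA #1 and ASAH1 shRNA #2), with 3 libraries per group and 9 in all. ASAH1 encodes acid ceramidase, the lysosomal enzyme that splits ceramide into sphingosine and a fatty acid, and the study sequenced these cells to ask which genes change when it is lost. All groups were grown in DMEM with fetal bovine serum, and the sources used here name no added interferon. The libraries are called biological replicates, but nothing says that they came from separately derived lines, so the p-values measure the spread between these libraries.

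Interferons are secreted proteins that bind receptors on the cell surface and, through JAK kinases, switch on a factor made of STAT proteins and IRF9. That factor binds a short promoter sequence, the interferon-stimulated response element (ISRE), and turns on genes that block virus entry, degrade viral RNA, stop translation or attract immune cells. Sensors of misplaced RNA or DNA start the same program by inducing interferon, and many sensors are themselves interferon-stimulated, so that the pathway feeds back on itself. In cancer cells a part of the program can be on without any virus.

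The ISRE was searched in the RefSeq promoter windows (build GRCh38.p14) that span 250 bases before to 50 bases after each transcription start. Windows were at hand for 43 of the 54 genes, 58 windows in all, because 13 of the 43 have more than 1 listed start; IRF7, MB21D1, TMEM173, OAS2, OASL, IFIT2, USP18, MX2, IFITM2, TRIM22 and GBP2 were not matched. The ISRE letters searched were GAAA, any 2 bases and GAAA again, on either strand, and they were present in at least 1 window of 27 of the 43 genes (62.8%) and of 1195 of 27305 genes in the table (4.38%). Counted by window, they were in 32 of 58 (55.2%) against 1255 of 35116 (3.57%). The letters TTCNNNGAA, the core of the gamma-activated site bound by STAT dimers, were in a window of 13 of the 43 genes (30.2%) and of 2560 of the 27305 genes (9.38%). The ISRE and gamma-activated site letters can overlap, and did so 24 times over all windows. The following stretches carry the ISRE letters in capitals and are shown because they stand near the starts of genes with different calls: lower with both hairpins (IFIT1, IFITM3, BST2), higher with #1 and lower with #2 (DDX60, IFIT3, RSAD2), lower with #2 with no call for #1 (ISG20, CXCL10), higher with #1 with no call for #2 (ISG15), higher with both (SAMD9) and called with neither (IFI6). Each is written 5′ to 3′ in the direction of its gene.
IFIT1, chr10:89392492-89392544, plus strand: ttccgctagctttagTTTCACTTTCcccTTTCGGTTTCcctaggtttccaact
IFITM3, chr11:320871-320927, minus strand: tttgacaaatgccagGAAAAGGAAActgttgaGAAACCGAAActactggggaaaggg
BST2, chr19:17405730-17405775, minus strand: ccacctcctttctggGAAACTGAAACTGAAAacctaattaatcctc
DDX60, chr4:168318781-168318855, minus strand: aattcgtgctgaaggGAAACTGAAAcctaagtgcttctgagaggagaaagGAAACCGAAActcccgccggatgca
IFIT3, chr10:89332420-89332502, plus strand: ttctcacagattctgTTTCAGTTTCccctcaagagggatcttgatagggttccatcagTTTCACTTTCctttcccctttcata
RSAD2, chr2:6877617-6877656, plus strand: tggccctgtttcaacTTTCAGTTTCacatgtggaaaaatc
ISG20, chr15:88638932-88638971, plus strand: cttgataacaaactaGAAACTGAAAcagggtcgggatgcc
CXCL10, chr4:76023694-76023733, minus strand: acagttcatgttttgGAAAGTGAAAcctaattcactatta
ISG15, chr1:1013369-1013414, plus strand: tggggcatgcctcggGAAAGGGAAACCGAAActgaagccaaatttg
SAMD9, chr7:93118091-93118130, minus strand: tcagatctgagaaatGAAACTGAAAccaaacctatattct
IFI6, chr1:27672261-27672363, minus strand: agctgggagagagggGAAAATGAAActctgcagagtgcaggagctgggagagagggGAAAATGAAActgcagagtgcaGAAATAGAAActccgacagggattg

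ISG15 and BST2 carry the letters as a pair of overlapping matches, and IFI6 carries 3 separate ones. The 53 matches in the windows lay between 221 bases before and 24 bases after the start. A site within overlapping windows was counted once per window, as for IFI27, IFI44 and PLSCR1. PARP9 and DTX3L, neighbours on opposite strands, had 1 match in common, which spans the listed start of DTX3L. A match describes the letters only.

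**Figure D1:**
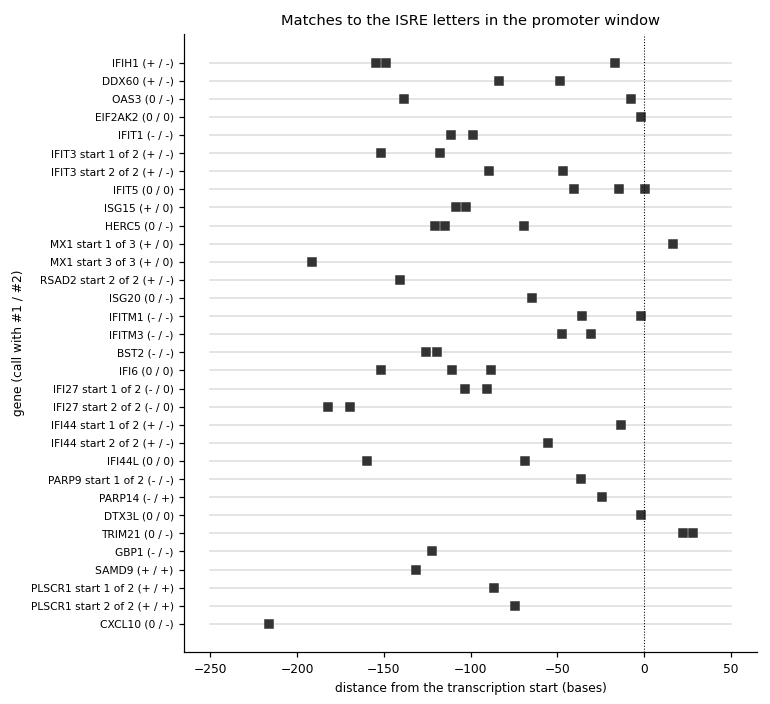
Position of each match to the ISRE letters (squares) in the promoter windows of the 27 genes that had one, in bases from the transcription start (dotted line), 1 row per listed start. Signs after each gene give the call with ASAH1 shRNA #1 and #2 (+ higher, - lower, 0 no call); genes with like positions are seen with each kind of call.

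Values are normalized read counts, that is, the reads of a gene divided by a size factor for the library, as the authors deposited them in 1 table per hairpin. The same 3 NS shRNA libraries are in both tables, with slightly different scaling, so each hairpin was compared only within its own table, and the 2 comparisons share their controls. Fold changes are on the scale log2(normalized count + 1), given with standard errors, and a gene was called higher or lower at a Benjamini-Hochberg adjusted p below 0.05 in limma, 3 libraries against 3. With the 2 hairpins compared directly, by edgeR's quasi-likelihood test on the reads, the log2 ratio is #2 over #1. In 3 libraries against 3, an exact permutation test of a single gene cannot go below p = 0.1. Reads on genes ran from 23806003 to 49659106 per library. Of 5 genes typical of the line (VIM, CD44, KRT8, KRT18 and KRT19), all were abundant; 4 fell with #1 and 3 with #2, with log2 fold changes of -0.27 ± 0.04 and -0.67 ± 0.05 for VIM and -1.50 ± 0.04 and -0.77 ± 0.05 for KRT8. Of 3 receptor genes listed as low in triple-negative cancer, ESR1 and PGR were near 0. ERBB2 was expressed, at a mean of 3270 normalized counts with NS shRNA in the table of #1. It fell with both hairpins (log2 fold change -0.69 ± 0.05 and -0.42 ± 0.08). Of 7 immune cell markers, 5 (PTPRC, CD3E, LYZ, NKG7 and IL3RA) had means below 10 normalized counts in every group. The other two, CD14 and CD68, were expressed. CD14 fell with #1 (log2 fold change -2.14 ± 0.09) and was not called with #2 (0.10 ± 0.09), and CD68 rose with #1 (0.29 ± 0.11) and fell with #2 (-1.38 ± 0.11). Of 4 endothelial and fibroblast markers, VWF and DCN had means below 10, COL1A1 was not called, and PECAM1 fell with both (-0.59 ± 0.19 and -0.91 ± 0.19). The part of these markers in the results was not tested. Fewer expressing cells and less RNA per cell cannot be told apart in such bulk samples.

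The knockdown was present in every library. ASAH1 stood at 4436, 4512 and 4518 normalized counts with NS shRNA and at 1268, 1365 and 1348 with #1, a log2 fold change of -1.76 ± 0.05. Against 4787, 4898 and 4871 in the other table, #2 gave 779.6, 807 and 762, a log2 fold change of -2.63 ± 0.06. ASAH1 was thus lower with #2 than with #1, with a log2 ratio of -0.89 ± 0.05 (edgeR adjusted p = 6.98e-08).

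Most genes tested were called with each hairpin, and most also differed between the hairpins, so the interferon-stimulated genes are read against that background. With ASAH1 shRNA #1, 19 of the 54 genes were higher, 17 were lower and 18 were not called, where 66.1% of the 14341 genes tested were called, 32.8% higher and 33.3% lower. The shares of the 54, 35.2% higher and 31.5% lower, were near that background. With ASAH1 shRNA #2, 7 were higher, 33 were lower and 14 were not called, beside a background of 66.9% called, 33.5% higher and 33.4% lower, of 14250 genes. The median log2 fold change of the 54 was 0.01 with #1 and -0.41 with #2, beside 0.00 and 0.01 over all genes tested. All 54 passed the filter of a mean of at least 10 normalized counts in both tables. Between the hairpins, 30 were lower and 11 higher with #2 than with #1, where 64% of 14360 genes were called, 32.6% lower and 31.4% higher. At a change of at least 2-fold, none of the 54 was higher and 7 were lower with #1 (background 6.75% and 5.33%), and 2 were higher and 13 lower with #2 (background 5.6% and 8.34%). Between the hairpins, 1 was at least 2-fold higher and 11 at least 2-fold lower with #2 than with #1 (background 3.97% and 8.45%).

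10 genes, namely IFIH1, DDX60, OASL, IFIT2, IFIT3, HERC6, RSAD2, IFI44, SP110 and CXCL11, were higher with #1 and lower with #2, a class that held 18.5% of the 54 and 3.8% of the 14075 genes tested in both tables. 2 genes, PARP14 and TRIM25, were called the other way round, where the background was 4.16%, and opposite calls of either kind made up 7.96% of all genes. The direct comparison of the hairpins was past the threshold for all 12 of these genes, which opposite calls from the same libraries all but imply. Without NS shRNA replicate 2, 9 of the 12 opposite calls were left, and those of IFIH1, IFIT2 and IFIT3 were lost. 13 (STAT2, TMEM173, OAS1, OAS2, IFIT1, IFITM1, IFITM2, IFITM3, BST2, PARP9, TRIM22, GBP1 and GBP2) were lower with both hairpins, beside a background of 20.5%, and 4 (IRF1, MB21D1, SAMD9 and PLSCR1) were higher with both, beside 20%. 10 were lower with #2 and not called with #1 (18.5%, beside a background of 9.43%), and 1 was higher with #2 and not called with #1 (1.85%, beside 9.31%). 7 were called with neither, or 13%, near the background of 15%. Counts over a list are descriptions, since its genes share regulators.

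**Figure D2:**
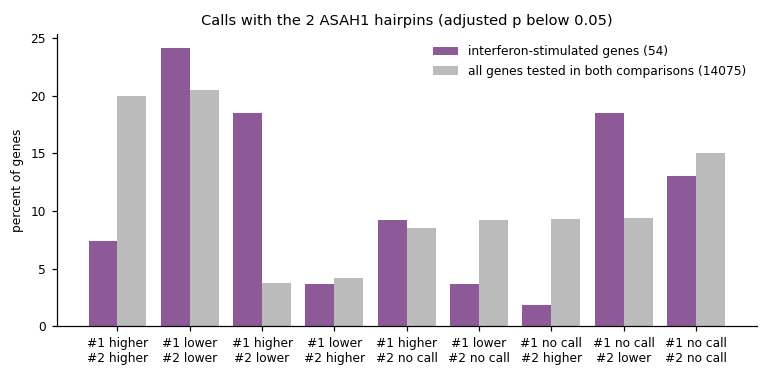
Percent of the 54 interferon-stimulated genes (purple) and of the 14075 genes tested in both tables (grey) in each pair of calls at an adjusted p below 0.05. The class higher with #1 and lower with #2 held 18.5% of the 54 and 3.8% of all genes, and the class higher with both held 7.41% and 20%.

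In control cells the 54 genes differed widely in level. Scaled to exon length and library depth (RPKM over merged exons, mean ± SD, n = 3 libraries), BST2 had the highest level of the 54 at 175 ± 21.1, followed by ISG15 at 87.2 ± 16.4 and IFITM3 at 61.5 ± 1.89. Next were IFIT3 at 32 ± 1.91 and UBE2L6 at 30.4 ± 1.65, which did not differ beyond their spread. At the other end stood OAS1 at 0.271 ± 0.0533 and IFI44L at 0.044 ± 0.0191 RPKM. These ranks depend on the length used, which was 13021 bases for OAS1 and 4095 for USP18. In normalized counts with NS shRNA (table of #1), OAS1 had a mean of 114 and USP18 one of 58.4. IFI44L had 9.81 to 24.0 normalized counts with NS shRNA, so little could be said of it with either hairpin.

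**Figure D3:**
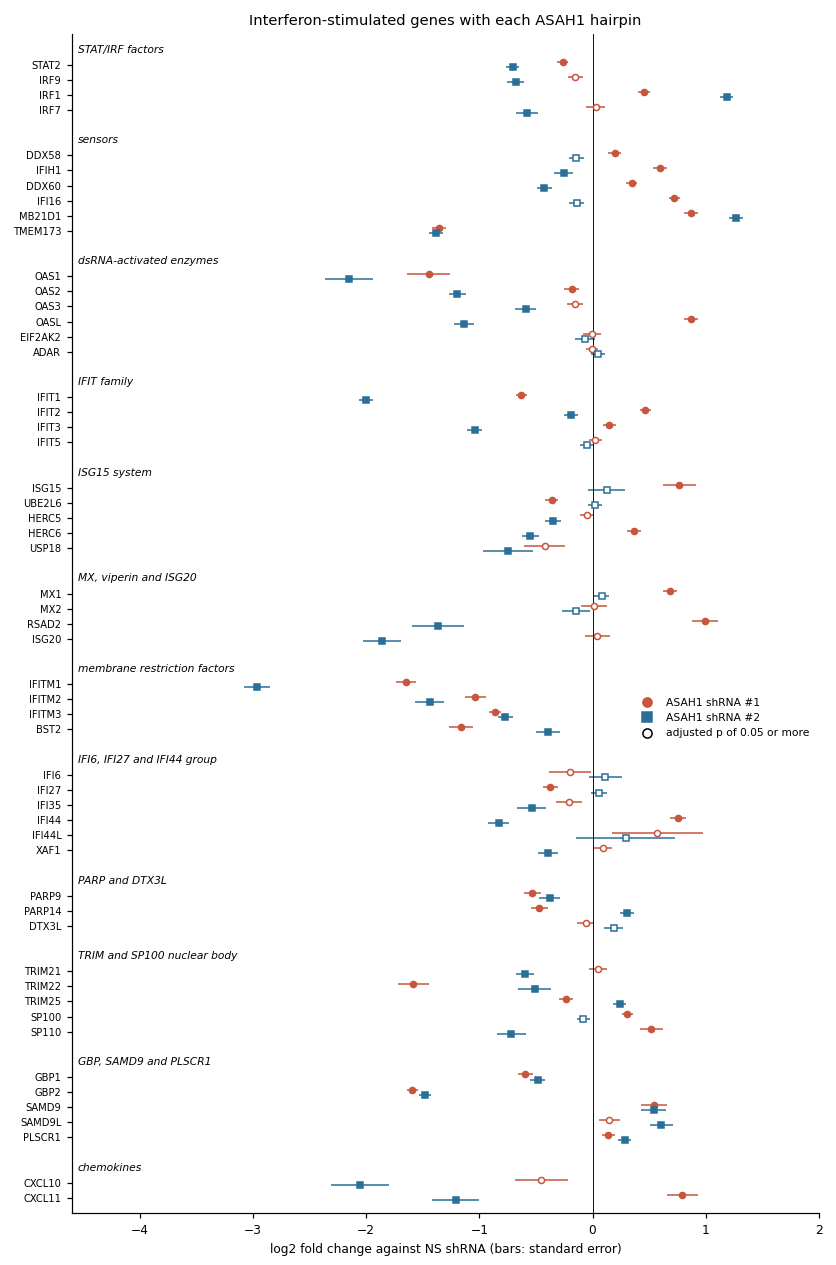
Log2 fold change of each of the 54 genes against NS shRNA with ASAH1 shRNA #1 (circles) and ASAH1 shRNA #2 (squares), by role; bars are standard errors and open symbols have an adjusted p of 0.05 or more. The IFITM genes, GBP2 and TMEM173 lie left of 0 with both hairpins, IRF1 and MB21D1 lie right of 0 with both, and OASL, RSAD2, IFI44 and CXCL11 lie on opposite sides.

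The 4 transcription factors did not move as a block. STAT2 and IRF9, the partners that carry the type I interferon signal into the nucleus, were lower with #2. STAT2 had 3221, 3418 and 3378 normalized counts with NS shRNA and 2054, 2082 and 1999 with #2 (log2 fold change -0.71 ± 0.06, adjusted p = 1.63e-06). With #1 it had 2673, 2534 and 2514 against 2985, 3149 and 3133 (log2 fold change -0.26 ± 0.05, adjusted p = 0.00117). The groups did not overlap in either table, and the fall was larger with #2 (log2 ratio -0.46 ± 0.05, adjusted p = 8.06e-06). IRF9 went from 649, 697 and 699.8 with NS shRNA to 411, 434 and 431 with #2 (log2 fold change -0.68 ± 0.08, adjusted p = 2.03e-05). With #1, its 595, 549 and 558 lay below the control values of 602, 642 and 649 without passing the test (log2 fold change -0.15 ± 0.07, adjusted p = 0.0727).

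IRF7, the factor that amplifies interferon alpha induction, was lower with #2 and was not called with #1. It had 443, 509 and 435 normalized counts with NS shRNA and 320.2, 283 and 322 with #2 (log2 fold change -0.58 ± 0.10, adjusted p = 3.83e-04). With #1 the libraries overlapped the controls, at 416, 463 and 427 against 410.3, 469 and 403. The log2 ratio of #2 to #1 was -0.62 ± 0.09 (edgeR adjusted p = 7.93e-05).

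IRF1, a factor induced by interferon gamma and by inflammatory cytokines that can act without IRF9, rose with both hairpins. Its normalized counts were 2829, 2668 and 2602 with NS shRNA and 3546, 3672 and 3864 with #1 (log2 fold change 0.45 ± 0.05, adjusted p = 6.11e-05). In the table of #2 they went from 3052, 2896 and 2805 to 6523, 6458 and 6928 (log2 fold change 1.19 ± 0.06, adjusted p = 6.87e-08), so that every knockdown library stood above every control. The rise was larger with #2, with a log2 ratio of 0.72 ± 0.05.

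**Figure D4:**
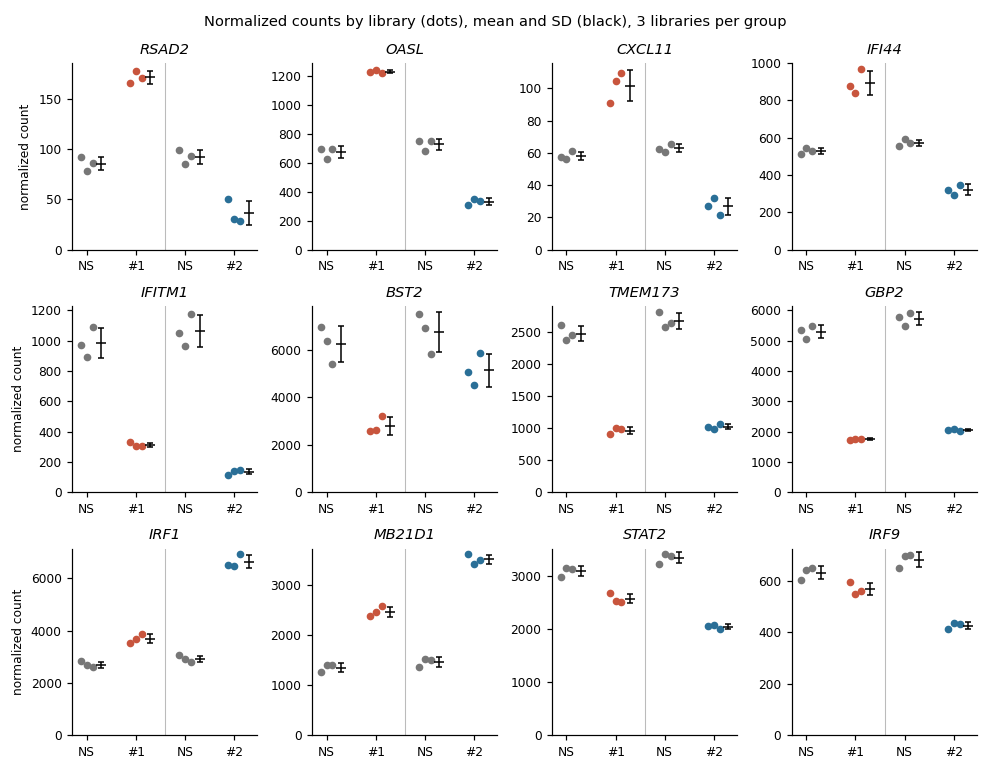
Normalized counts of 12 genes in each library (dots) with mean and SD (black) for NS shRNA and ASAH1 shRNA #1 in one table and NS shRNA and ASAH1 shRNA #2 in the other, separated by the grey line. RSAD2, OASL, CXCL11 and IFI44 stand above their controls with #1 and below them with #2; IFITM1, TMEM173 and GBP2 stand below their controls with both.

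Among the sensors, MB21D1 and TMEM173 of the DNA arm were altered with both hairpins, in opposite directions. MB21D1 (current symbol CGAS, chr6:73413515-73452297) encodes cGAS, which makes a cyclic dinucleotide when it meets cytosolic DNA, and TMEM173 (STING1, chr5:139475533-139482935) encodes STING, the adaptor that this dinucleotide switches on. MB21D1 rose from 1252, 1400.4 and 1389.5 with NS shRNA to 2367, 2453 and 2570.3 with #1 (log2 fold change 0.87 ± 0.06, adjusted p = 2.10e-06). With #2 it stood at 3605, 3413 and 3499 against 1351, 1520.2 and 1498 (log2 fold change 1.27 ± 0.06, adjusted p = 9.48e-08).

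TMEM173 fell by nearly the same amount with each hairpin. It had 2608, 2370.0 and 2448 normalized counts with NS shRNA and 904, 1006 and 984 with #1 (log2 fold change -1.36 ± 0.06, adjusted p = 1.57e-07). The values with #2 were 1015, 988 and 1068 against 2814, 2573 and 2640.0 (log2 fold change -1.39 ± 0.06, adjusted p = 5.39e-08). No overlap was seen in either table, and the direct log2 ratio of #2 to #1 had a 95% interval of -0.18 to 0.10. IFI16, a further sensor of DNA, rose with #1 to 7333, 7131 and 6966 from 4435, 4150.3 and 4399 (log2 fold change 0.72 ± 0.05, adjusted p = 1.22e-06). With #2 its libraries, at 4032, 4611 and 4098, overlapped the controls at 4786, 4505 and 4743 (log2 fold change -0.14 ± 0.06, adjusted p = 0.0727).

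The RNA sensors were higher with #1 and were lower or not called with #2. IFIH1 encodes MDA5, which detects long double-stranded RNA. It had 838, 899.9 and 904 normalized counts with NS shRNA and 1336, 1401 and 1267 with #1 (log2 fold change 0.60 ± 0.06, adjusted p = 2.55e-05). With #2 it had 842, 844 and 714 against 905, 977 and 975 (log2 fold change -0.25 ± 0.08, adjusted p = 0.02). This call was lost without NS shRNA replicate 2 or without #2 replicate 3, with adjusted p up to 0.0784. DDX60, a helicase reported to assist the RNA sensors, rose with #1 to 1903, 1910.1 and 1849 from 1448, 1478 and 1529.9 (log2 fold change 0.35 ± 0.05, adjusted p = 2.33e-04). It fell with #2 to 1215, 1258 and 1113 from 1563, 1604 and 1649.5 (log2 fold change -0.43 ± 0.07, adjusted p = 2.43e-04). DDX58 (current symbol RIGI), the RIG-I sensor of short RNA ends, had a log2 fold change of 0.20 ± 0.06 with #1 (adjusted p = 0.0155), lost without #1 replicate 2 (adjusted p = 0.0606), and of -0.15 ± 0.07 with #2 (adjusted p = 0.0727). The log2 ratio of #2 to #1 passed the test for all 3 RNA sensors, at -0.87 for IFIH1, -0.78 for DDX60 and -0.35 for DDX58.

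Of the 44 effectors, 13 were higher and 15 lower with #1, and 5 were higher and 27 lower with #2. As shares, 29.5% were higher and 34.1% lower with #1, near the 32.8% and 33.3% of all genes tested, and 11.4% were higher and 61.4% lower with #2, where all genes had 33.5% and 33.4%. The membrane restriction factors, which block virus entry or tether new virus to the cell, were lower with both hairpins in 4 of 4 cases, a class that held 20.5% of all genes. IFITM1 had the largest fall of the 54 genes with #2. With #1 its fall was within the standard errors of those of GBP2 and TRIM22. Its normalized counts were 972, 891 and 1091 with NS shRNA and 330.3, 304 and 305 with #1 (log2 fold change -1.65 ± 0.09, adjusted p = 3.41e-07). Against 1049, 967 and 1177 in the other table, #2 left 116, 144 and 146 (log2 fold change -2.97 ± 0.11, adjusted p = 1.76e-08). The groups were far apart in both tables, and IFITM1 was lower with #2 than with #1 (log2 ratio -1.32 ± 0.11).

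IFITM2 and IFITM3, which lie beside IFITM1 on chromosome 11, fell too. IFITM2 had log2 fold changes of -1.04 ± 0.09 with #1 and -1.44 ± 0.13 with #2, and IFITM3 had -0.86 ± 0.05 and -0.77 ± 0.07. The log2 ratio of #2 to #1 for IFITM3 was not called and had a 95% interval of -0.06 to 0.22. These 3 genes are close in sequence, so reads may have been left out or shared between them in counting. BST2, which encodes tetherin, fell with #1 to 2559, 2604 and 3213 from 6946, 6349.5 and 5411 normalized counts (log2 fold change -1.16 ± 0.11, adjusted p = 1.03e-05). With #2 the values were 5057, 4493 and 5868 against 7495, 6892 and 5834 (log2 fold change -0.39 ± 0.11, adjusted p = 0.00775); 1 library of #2 lay within the control range, and BST2 was higher with #2 than with #1 (log2 ratio 0.76 ± 0.12).

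**Figure D5:**
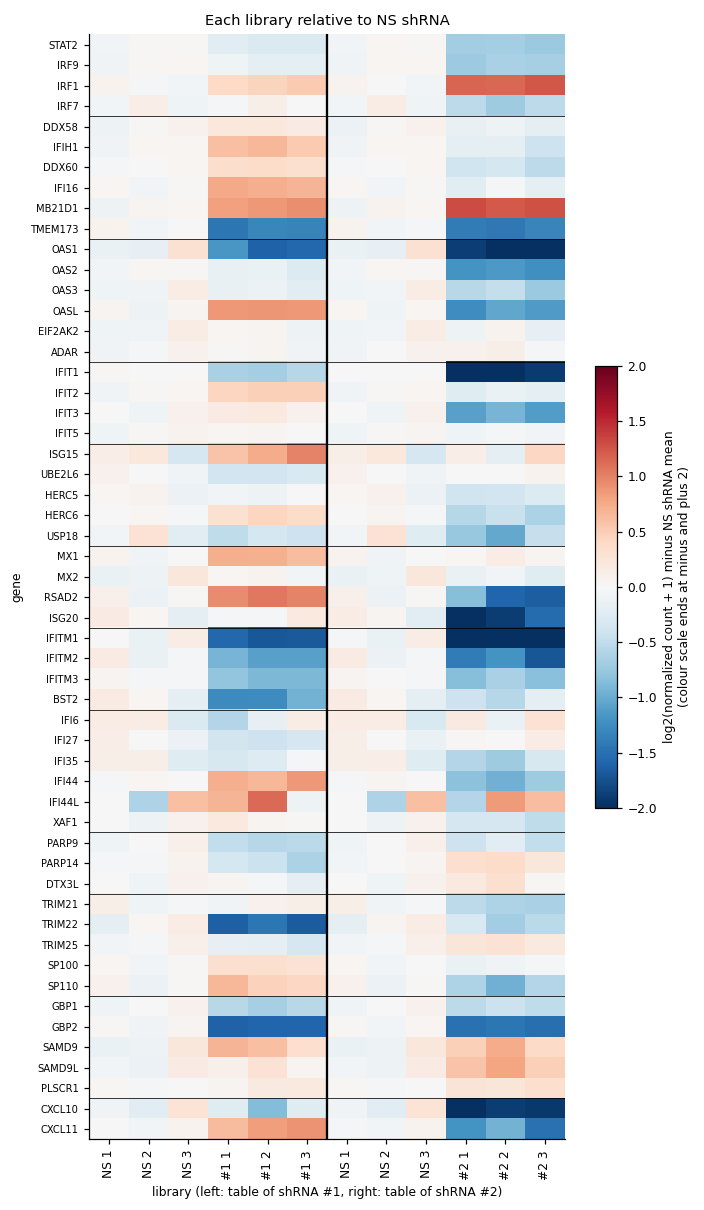
Each library's log2(normalized count + 1) minus the mean of the NS shRNA libraries of the same table, for the 54 genes in order of role (thin lines part the roles; blue lower, red higher). The 3 libraries of a hairpin share their colour for most genes, and the blue of the right-hand block is more widespread than that of the left.

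The enzymes that respond to double-stranded RNA fell with #2, apart from the kinase and the deaminase. OAS1, OAS2 and OAS3 make the messenger that activates RNase L and form a cluster on chromosome 12. OAS1 had 103, 100.1 and 139 normalized counts with NS shRNA and 49.5, 36.1 and 37.5 with #1 (log2 fold change -1.45 ± 0.19, adjusted p = 1.07e-04). In the table of #2, it had 111, 109 and 150.3 with NS shRNA and 32.3, 21.4 and 27.1 with #2 (log2 fold change -2.15 ± 0.21, adjusted p = 7.64e-06). OAS1 was low in all groups, and no knockdown library reached a control library. OAS2 had log2 fold changes of -0.18 ± 0.07 with #1, a call lost without any 1 of 3 libraries (NS shRNA replicates 2 and 3 and #1 replicate 3), and -1.19 ± 0.07 with #2. OAS3 was lower with #2 (log2 fold change -0.59 ± 0.09, adjusted p = 1.98e-04) and was not called with #1 (-0.16 ± 0.07).

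OASL, a relative of the OAS enzymes that lacks their activity and enhances RIG-I signaling, went in opposite directions. It rose with #1 from 698, 630.0 and 698 to 1229, 1246 and 1226 normalized counts (log2 fold change 0.87 ± 0.06, adjusted p = 2.34e-06). With #2 it fell from 753, 684 and 753 to 308, 354 and 334 (log2 fold change -1.14 ± 0.09, adjusted p = 1.32e-06). The 3 libraries of each group lay close together, and the direct log2 ratio was -2.02 ± 0.07 (edgeR adjusted p = 1.41e-09). EIF2AK2, the kinase PKR that stops translation, and ADAR, which edits double-stranded RNA, were called in no comparison. The 95% interval of the log2 fold change was -0.18 to 0.17 with #1 and -0.26 to 0.13 with #2 for EIF2AK2, and -0.13 to 0.12 and -0.09 to 0.19 for ADAR.

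The IFIT genes, whose proteins bind foreign RNA and stop its translation, lie in a row on chromosome 10 in the order IFIT2, IFIT3, IFIT1 and IFIT5 and had unlike responses. IFIT1 (chr10:89392546-89406487) fell from 3063, 2999 and 3022 with NS shRNA to 1939, 1892 and 2034 with #1 (log2 fold change -0.63 ± 0.05, adjusted p = 3.62e-06). With #2 the fall was to 781, 811 and 863 from 3306, 3256 and 3258 (log2 fold change -2.00 ± 0.06, adjusted p = 5.53e-09). Its direct log2 ratio was -1.38 ± 0.06, so the fall was deeper with #2. IFIT3 (chr10:89327307-89377473) fell with #2 to 2655, 2976 and 2614 from 5656, 5355 and 5969.8 (log2 fold change -1.04 ± 0.07, adjusted p = 4.49e-07). Its rise with #1, to 5890.2, 5984 and 5525 from 5241, 4933 and 5537, was small (log2 fold change 0.15 ± 0.06, adjusted p = 0.0405), overlapped the controls and was lost without any 1 of 4 libraries (NS shRNA replicates 1 and 2 and #1 replicates 1 and 2).

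IFIT2 (chr10:89283694-89309271) was higher with #1, at 4383, 4531 and 4519 against 3099, 3296 and 3346 (log2 fold change 0.46 ± 0.05, adjusted p = 2.43e-05). It was slightly lower with #2, at 2964, 3185 and 3073 against 3344, 3577 and 3608 (log2 fold change -0.19 ± 0.06, adjusted p = 0.0135), which was lost without NS shRNA replicate 2 or #2 replicate 1 (adjusted p up to 0.0656). IFIT5 (chr10:89414568-89421605) was called with neither hairpin, and its promoter window carries 3 matches to the ISRE letters. Within this row of genes the direct log2 ratio of #2 to #1 was -0.67 for IFIT2, -1.20 for IFIT3, -1.38 for IFIT1 and -0.09 for IFIT5, and the first 3 passed the test.

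RSAD2, which encodes the antiviral enzyme viperin, showed the widest gap between the hairpins of the 54 genes. It had 92.1, 78.5 and 86.8 normalized counts with NS shRNA and 166, 178 and 171 with #1 (log2 fold change 1.00 ± 0.11, adjusted p = 4.56e-05). With #2 it had 50.7, 30.1 and 28.7 against 99.4, 85.2 and 93.6 (log2 fold change -1.37 ± 0.23, adjusted p = 3.46e-04). No library of either hairpin overlapped the controls, and the direct log2 ratio was -2.38 ± 0.19 (edgeR adjusted p = 8.77e-07). ISG20, an exonuclease that degrades viral RNA, fell with #2 from 348, 323 and 271 to 70.1, 82.6 and 107 (log2 fold change -1.86 ± 0.17, adjusted p = 3.83e-06) and overlapped the controls with #1 (log2 fold change 0.04 ± 0.11). MX1, a GTPase that traps viral particles, rose with #1 (log2 fold change 0.69 ± 0.06, adjusted p = 7.71e-06) and overlapped its controls with #2 (0.08 ± 0.07). Its neighbour on chromosome 21, MX2, was not called with either hairpin (0.02 ± 0.12 and -0.15 ± 0.12).

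ISG15, listed here with HERC6, is a ubiquitin-like protein that UBE2L6 and HERC5 help to attach to other proteins and that USP18 removes. Its transcript rose with #1, to 3576, 4048 and 4779 from 2632, 2785 and 1911 (log2 fold change 0.77 ± 0.14, adjusted p = 0.00106), and with #2 overlapped the controls at 2843, 2309 and 3484 against 2840.2, 3023 and 2061. The spread between libraries was wide for ISG15 in all groups. HERC6 rose with #1 to 949, 1032 and 981 from 759.8, 787 and 747 (log2 fold change 0.37 ± 0.06, adjusted p = 5.06e-04). It fell with #2 to 555, 605 and 535 from 819.9, 854 and 805 (log2 fold change -0.55 ± 0.08, adjusted p = 9.59e-05). The other 3 genes of the group had log2 fold changes between -0.42 and -0.05 with #1 and between -0.75 and 0.02 with #2.

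IFI44 was a further gene with opposite calls. It rose with #1 to 877, 839 and 967 from 514, 545 and 528 (log2 fold change 0.75 ± 0.07, adjusted p = 1.31e-05). With #2 it fell to 322, 293 and 349 from 554, 591 and 569 (log2 fold change -0.83 ± 0.09, adjusted p = 1.56e-05). The groups were separate in both tables, with a direct log2 ratio of -1.60 ± 0.08. The other genes of this group, IFI6, IFI27, IFI35, IFI44L and XAF1, held 1 lower call with #1 (IFI27) and 2 with #2 (IFI35 and XAF1).

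Nuclear body and TRIM genes were mixed. SP110, a component of nuclear bodies, rose with #1 to 381, 332 and 321 from 255, 219.8 and 245 (log2 fold change 0.52 ± 0.10, adjusted p = 0.00127) and fell with #2 to 169, 133 and 171 from 276, 239 and 264 (log2 fold change -0.72 ± 0.13, adjusted p = 5.31e-04). TRIM22, a ubiquitin ligase that restricts viruses, fell with #1 to 52.1, 59.4 and 50.9 from 143, 169 and 182 (log2 fold change -1.58 ± 0.14, adjusted p = 8.06e-06). It fell less with #2, to 143, 109 and 122 from 155, 183 and 196 (log2 fold change -0.51 ± 0.14, adjusted p = 0.00907). The direct log2 ratio of 1.07 ± 0.16 put it higher with #2 than with #1, against the direction of most of the 54 genes.

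TRIM25, the ligase that helps to activate RIG-I, and PARP14, an ADP-ribosyltransferase, were lower with #1 and higher with #2. TRIM25 had 5140.0, 5016 and 4558 with #1 against 5538, 5568 and 6160.0 (log2 fold change -0.23 ± 0.06, adjusted p = 0.00873) and 7336, 7558 and 7140.0 with #2 against 5976, 6044 and 6642 (log2 fold change 0.24 ± 0.06, adjusted p = 0.0037). PARP14 had 1551, 1469 and 1281 with #1 against 1920.5, 1953 and 2072 (log2 fold change -0.47 ± 0.07, adjusted p = 3.94e-04) and 2704, 2752 and 2505 with #2 against 2072, 2119.9 and 2234 (log2 fold change 0.31 ± 0.06, adjusted p = 0.00122). No library overlapped the controls for either gene. PARP9 and DTX3L, the divergent pair with 1 ISRE match between them, did not share their calls: PARP9 was lower with both hairpins (-0.53 ± 0.07 and -0.38 ± 0.09) and DTX3L was called with neither (-0.06 ± 0.08 and 0.19 ± 0.08).

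Guanylate-binding protein genes fell with both hairpins. GBP2, a GTPase that attacks the vacuoles of intracellular microbes, went from 5367, 5062 and 5477 with NS shRNA to 1722, 1774 and 1771 with #1 (log2 fold change -1.59 ± 0.05, adjusted p = 1.43e-08). Its values with #2 were 2044, 2103 and 2013 against 5791, 5495 and 5905 (log2 fold change -1.48 ± 0.05, adjusted p = 1.49e-08). The libraries of each group lay within a narrow range, and the direct log2 ratio had a 95% interval of -0.0035 to 0.21. GBP1 fell by less, with -0.59 ± 0.06 for #1 and -0.49 ± 0.07 for #2. SAMD9 rose with both (0.55 ± 0.11 and 0.54 ± 0.11), its neighbour SAMD9L with #2 (0.61 ± 0.10), and PLSCR1 rose slightly with both (0.14 ± 0.06 and 0.28 ± 0.06). The call for PLSCR1 with #1 (limma adjusted p = 0.04996) was lost without any 1 of 5 of the 6 libraries, all but #1 replicate 1.

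CXCL10 and CXCL11 encode chemokines that draw in T cells through the receptor CXCR3 and are neighbours on chromosome 4. CXCL11 rose with #1 to 90.9, 104 and 109.5 from 57.6, 55.9 and 60.9 normalized counts (log2 fold change 0.79 ± 0.14, adjusted p = 6.85e-04). With #2 it fell to 27, 32.1 and 21.7 from 62.1, 60.7 and 65.7 (log2 fold change -1.21 ± 0.21, adjusted p = 4.24e-04). The direct log2 ratio was -2.06 ± 0.18, and no knockdown library lay within the control range in either table. CXCL10 fell with #2 to 9.7, 13.6 and 13.2 from 50.8, 45.8 and 64.7 (log2 fold change -2.06 ± 0.26, adjusted p = 4.43e-05). With #1 it had 41.5, 26.5 and 41.3 against 47.1, 42.2 and 60 and was not called (log2 fold change -0.45 ± 0.23, adjusted p = 0.113). Both chemokines were expressed at low levels, so their fold changes rest on few reads.

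The ISRE letters were set beside the calls as a description. Of the 27 genes with the letters in a window, 14 were lower, 5 higher and 8 not called with #2 relative to #1, and of the 16 genes whose windows lacked them, 11 were lower, 4 higher and 1 not called. Of all 14360 genes tested between the hairpins, 32.6% were lower, 31.4% were higher and 5173 genes were not called. The median log2 ratio of #2 to #1 was -0.31 with the letters and -0.43 without, whereas the median log2 fold change with #2 against NS shRNA was -0.38 with the letters and -0.27 without. The share of genes with the letters was 62.5% (5 of 8) among those higher with #1 and lower with #2, 75.0% (6 of 8) among those lower with both and 66.7% (2 of 3) among those higher with both. By the direct comparison of the hairpins, the share was 56.0% (14 of 25) among genes lower with #2 than with #1, 55.6% (5 of 9) among those higher and 88.9% (8 of 9) among those not called. The gamma-activated site letters were in 8 of 25, 5 of 9 and 0 of 9 of these genes.

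Other genes of the pathway, 41 in a separate list, were examined for the steps before and beside the interferon-stimulated genes. 30 of them passed the filter in the table of #1, with 11 higher and 13 lower, and 28 in the table of #2, with 6 higher and 11 lower. Thus 80% of those tested were called with #1 and 60.7% with #2, where 66.1% and 66.9% of all genes were. Of the 9 ligands, IFNB1, IFNE, IFNK, IFNA1, IFNA2, IFNG and IFNL2 had 0 reads in all 9 libraries, which at this depth allows up to 3 reads in each. IFNL3 had at most 1 read in any library. IFNL1, a lambda interferon, had at most 1 read with NS shRNA and at most 2 with #2, and up to 27 with #1, at least 7.56-fold higher than the floor of 3 reads per library. No listed interferon was thus above that floor with #2.

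The receptors were expressed in all groups. IFNAR1, the first chain of the type I receptor, was higher with both hairpins (log2 fold change 0.46 ± 0.08 with #1 and 0.39 ± 0.07 with #2). IFNAR2, its partner, was lower with #1 (-0.67 ± 0.09) and not called with #2 (-0.18 ± 0.08, adjusted p = 0.067). IFNGR2, the second chain of the interferon gamma receptor, was slightly higher with #1 (0.12 ± 0.05) and lower with #2 (-0.43 ± 0.05), while IFNGR1 was called with neither. IFNLR1, the chain specific to lambda interferons, was higher with #1 (0.31 ± 0.10), and IL10RB, with which it pairs, was lower with #2 (-0.23 ± 0.07).

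Among the steps that lead to interferon, TLR3, the endosomal receptor of double-stranded RNA, fell with both hairpins (log2 fold change -1.68 ± 0.14 with #1 and -0.62 ± 0.15 with #2). IKBKE, a kinase that phosphorylates IRF factors, fell with both as well (-0.52 ± 0.05 and -0.97 ± 0.06). DHX58, the RIG-I relative LGP2, was slightly higher with #1 (0.23 ± 0.09, adjusted p = 0.0435) and lower with #2 (-1.42 ± 0.12, adjusted p = 2.02e-06). TLR7, a receptor of single-stranded RNA, was higher with #1 (1.61 ± 0.38) from a mean of 4.94 normalized counts and was below the filter in the other table. NLRC5, a regulator of class I antigen presentation genes, fell with both (-0.85 ± 0.07 and -0.75 ± 0.08).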

How the data were processed

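Total RNA was extracted with TRIzol, and oligo-dT selected, strand-specific single-end libraries were sequenced on an Illumina HiSeq instrument; the design text names ribosomal RNA depletion instead. Per the labels and the study's methods, the authors used Trimmomatic 0.36, STAR 2.7.1a, genome build hg38, HTSeq counting on UCSC genes with the reverse strand setting and DESeq2 1.28; another methods paragraph names Bowtie2, RSEM and edgeR. The authors deposited, per hairpin and for 6 libraries, a normalized signal, in which each gene's reads were divided by a DESeq2 size factor, in 2 tables of 26485 genes. They also deposited columns of their own comparison (mean, log2 fold change, standard error, score, p-value and adjusted p-value), which were not used.

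The reads were recovered from the normalized signal, every value being whole within a tolerance of 0.02, and those of NS shRNA differed at 0 genes between the tables. Each hairpin was compared with NS shRNA by limma 3.58.1 with trend, two-sided, on log2(value + 1) for genes averaging 10 or more. The hairpins were compared by edgeR 4.0.16 (quasi-likelihood, TMM) on the reads of all 9 libraries; DESeq2 1.42.0 was an alternative. The scripts ran in R 4.3.3 and Python 3.11.15 (pandas 2.3.3; plots by matplotlib 3.10.9). The fits were tested on simulated data for each comparison, in which few genes changed and all genes shared a single dispersion. In the real data most genes were called, so the following shares are not error rates of the reported calls. Changes of 0.5 (log2) were recovered for 81.8% of genes with #1, 81.6% with #2 and 73% between the hairpins, and changes of 1 for 96.9%, 94.9% and 94.9%; of the calls, 2.23%, 3.33% and 7.26% were false, the last above the 5% aimed at. The 54 members, the pathway list and the tests were chosen with earlier results of these data known.

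The genes described singly are every factor and sensor, every effector called with a log2 change of at least 0.8 in size, every gene with opposite calls, and pathway ligands, receptors and genes called with that size; the rest are given by counts and ranges, with a few named for contrast after their values were seen. Positions and exon lengths are from GENCODE release 44 on hg38, where all listed genes were matched, 3 of them through older symbols. Of the RefSeq promoter windows, 55 of 58 ended within a known transcript of their gene. Replicate libraries of a group differed by a chi-square per gene of 5.03 to 21.9, so none was a copy of another. Bounds against the floor cover counting error only. Alternatives were other pseudocounts, filters, scalings and tools, the replicate block and leaving out each library. Of the immune cell markers on the list, 1 is not reported here.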

Additional observations from a re-analysis of the deposited data

Results flagged for a closer look

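12 of the 54 genes were called in opposite directions with the 2 hairpins, where 7.96% of the 14075 genes tested with both were. For each of the 12, edgeR's quasi-likelihood test between the hairpins, on the reads of all 9 libraries, passed an adjusted p of 0.05. Opposite calls from the same libraries all but imply such a difference, so this test adds no separate support. 10 of the 12 genes were lower with ASAH1 shRNA #2 than with ASAH1 shRNA #1, a class of calls that held 18.5% of the 54 and 3.8% of all genes. The log2 ratio of #2 to #1 was -2.38 for RSAD2, -2.06 for CXCL11 and -2.02 for OASL. It was -1.60 for IFI44, -1.24 for SP110 and -1.20 for IFIT3. Smaller ratios were those of HERC6 at -0.932, IFIH1 at -0.866, DDX60 at -0.784 and IFIT2 at -0.667. The other 2 were higher with #2, PARP14 at 0.765 and TRIM25 at 0.458. Their class held 3.7% of the 54, near the 4.16% of all genes. Both hairpins lowered ASAH1, and #2 lowered it further than #1; whether the depth of the knockdown has a part in these differences was not tested and, with 1 construct per level, cannot be told apart from the hairpin.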

How the results depend on the processing

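No count of called genes changed by over 1.5 times under any alternative. Over all alternatives the genes called ranged from 32 to 37 with ASAH1 shRNA #1, from 37 to 42 with #2 and from 37 to 41 between the hairpins. The share of all genes tested that were called ranged from 47.3% to 70.1%, from 47.6% to 70.3% and from 44.9% to 66.4%, in the same order. The replicate numbers did not pair the libraries: same-numbered deviations from the group means were negatively correlated for both hairpins against NS shRNA (-0.0982 to -0.316). Between the hairpins they were positively correlated (0.0533, 0.0931 and 0.201), over 0.1 for 1 of 3 pairs, and each library correlated best with its own number there, which is a hint from the data and not from the design. With the number as a replicate block, 32 genes were called with #1 (16 higher, 16 lower), 38 with #2 (7 higher, 31 lower) and 39 between the hairpins. Of all genes tested, 8237, 8526 and 8590 were then called, beside 9479, 9538 and 9187 in the main fits. With the block, 9 of the 12 opposite calls were kept, those of IFIH1, IFIT2 and IFIT3 being lost. IFIT3 also lost its opposite call with all genes above 0, without the trend and in 1 fit of all 9 libraries, and CXCL11 fell under the filter at a mean of at least 50. PLSCR1 lost its higher call with #1 with all genes above 0 (limma adjusted p = 0.0606). Without 1 library, USP18 lost its call with #2 (adjusted p = 0.0582), and the calls of OAS1, IFITM2, IFI35, DTX3L and PLSCR1 between the hairpins were lost for at least 1 library.

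Direction turned only for genes that were not called, of which IFI44L was the farthest from 0 (0.29 with #2 and -0.26 between the hairpins). With upper quartile scaling, EIF2AK2 (0.00541) and ADAR (0.00589) with #1, UBE2L6 (-0.0263) with #2 and ADAR (-0.0344) between the hairpins changed sign. Leaving out each library in turn gave, with #1, log2 fold changes of -0.0184 to 0.0950 for IRF7, -0.0156 to 0.0566 for IFIT5, -0.0486 to 0.128 for MX2, -0.0465 to 0.0717 for EIF2AK2, -0.0396 to 0.0410 for ADAR, -0.0580 to 0.121 for ISG20 and -0.122 to 0.00729 for DTX3L. With #2 the ranges were -0.0110 to 0.737 for IFI44L, -0.138 to 0.00834 for EIF2AK2, -0.0458 to 0.272 for ISG15, -0.0200 to 0.0622 for UBE2L6, -0.0357 to 0.237 for IFI6 and -0.00869 to 0.118 for IFI27. Between the hairpins they were -0.129 to 0.0624 for SAMD9 and -0.542 to 0.135 for IFI44L. The cause of these turns was not tested. Depth limits IFI44L, OAS1, RSAD2, USP18 and both chemokines, whose groups hold the fewest reads.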
